A study of Drosophila melanogaster with 2 samples.

Results

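The genes described here are 9 structural genes of the muscle sarcomere and Mef2, the gene of a transcription factor that activates them. All 10 members (Mhc, Mlc1, Mlc2, up, wupA, Tm1, Tm2, bt, sls and Mef2) were taken by name and found in the annotation, out of 13968 protein-coding genes. Their peaks were those with a summit in the gene body or within 2 kb of it. The study used chromatin immunoprecipitation and sequencing in *Drosophila melanogaster* embryos to map where CG1603 binds, a zinc-finger protein with a known role in the control of nuclear genes for mitochondria. The 1 group was a stable transgenic line that carried CG1603 fused at its C-terminus to GFP. Males and females were pooled, embryos were 0 to 16 h old and chromatin was sonicated to 200 to 800 bp. The labels give 2 biological replicates, numbered 2 and 3, and name an antibody against GFP in the description but CG1603 in the antibody field. They do not give the promoter that drove the fusion or whether untagged CG1603 was also present. A control entered the authors' peak calling, but peaks of the control itself were not analysed here. Because whole embryos were used, binding in muscle cells and binding in other cells cannot be told apart.

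Striated muscle contracts when myosin of the thick filament pulls on actin of the thin filament. Troponin and tropomyosin make this depend on calcium, and very large titin-like proteins tie the filaments to the Z-disc. In flies most of these proteins come from 1 gene or a few, which make different forms by alternative splicing and alternative transcription start sites (TSSs). Mef2 is a MADS-box factor needed for muscle differentiation, and its targets include contractile protein genes. The collection window runs from before the formation of embryonic muscle to its differentiation.

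The reproducible list held 8963 peaks, and the pooled list and each replicate list held 30000. Each peak carries the authors' signal value, used here to rank peaks within a list (rank 1 is the strongest) and, once, for a ratio between replicates. The lowest signal in the reproducible list was 140.3. With 1 group and 2 replicates there is no comparison between conditions, and no test was made. Counts stand beside the share of all protein-coding genes, and values of single peaks beside both replicates. The lists hold no read counts, so the depth is unknown and no interval can be given for a single peak.

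Of the 10 genes, 4 had an annotated TSS with the summit of a reproducible peak at most 500 bp away, which is called bound here. They were sls, Tm1, Mef2 and up, and among all protein-coding genes this share was 35.2%, so the count of 4 in 10 was close to the background. Without replicate 2 the count was 3, since up was then not bound, against 37.4% of all protein-coding genes. None of the myosin genes Mhc, Mlc1 and Mlc2 was bound, nor were wupA and Tm2 of the thin filament and the titin-like bt. In the wider region of the gene and 2 kb to either side, 6 of the 10 genes held a reproducible summit, against 51.4% of all protein-coding genes. These 6 genes held 19 reproducible peaks, of which Tm1 had 7 and Mef2 had 8.

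**Figure D1:**
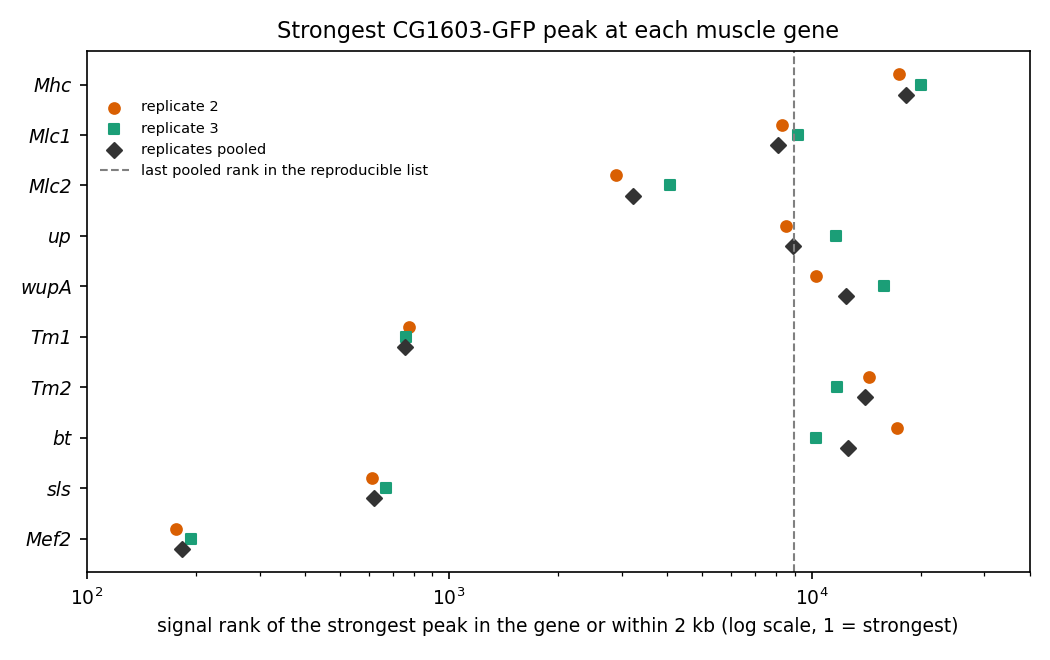
Signal rank of the strongest peak in each gene or within 2 kb of it (horizontal axis, log scale) in replicate 2, replicate 3 and the pooled replicates, with the last pooled rank of the reproducible list as a dashed line. Mef2, sls and Tm1 have peaks of rank 183, 622 and 758 in the pooled list, while the strongest peaks of Mhc, wupA, Tm2 and bt lie to the right of the line in all 3 lists. The peaks shown for Mef2, Mlc1 and Mlc2 in all 3 lists lie nearer to the TSS of another gene. So do those of Tm2 in the pooled list and replicate 2, and those of Mhc and bt in replicate 3.

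The sequences at the summits of 6 peaks on which these results turn are given here with 50 bp to either side, from the RefSeq release 6 assembly (dm6). They are the only peak of sls, the strongest pair of Tm1, the pair of Tm1 peaks that lie on the start sites of neighbouring genes, and the only peak of up, which lies at the edge of the reproducible list. Each is written 5′ to 3′ on the strand of the gene, and capitals mark matches to any of 7 searched motifs.
sls, rank 622, chr3L:2115836-2115936, minus strand: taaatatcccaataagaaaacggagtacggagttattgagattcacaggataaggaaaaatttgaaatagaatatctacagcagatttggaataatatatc
Tm1, rank 758, chr3R:15287891-15287991, plus strand: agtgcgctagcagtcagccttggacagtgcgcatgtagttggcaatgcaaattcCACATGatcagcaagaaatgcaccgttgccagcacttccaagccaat
Tm1, rank 1063, chr3R:15286139-15286239, plus strand: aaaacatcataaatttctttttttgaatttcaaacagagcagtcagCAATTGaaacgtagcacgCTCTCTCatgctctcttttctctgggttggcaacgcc
Tm1, rank 4096, chr3R:15278616-15278716, plus strand: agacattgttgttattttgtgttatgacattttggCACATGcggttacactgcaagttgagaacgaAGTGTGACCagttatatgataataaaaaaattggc
Tm1, rank 5518, chr3R:15278076-15278176, plus strand: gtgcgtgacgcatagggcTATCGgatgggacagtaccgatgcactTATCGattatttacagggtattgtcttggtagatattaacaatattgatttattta
up, rank 8872, chrX:13601585-13601685, minus strand: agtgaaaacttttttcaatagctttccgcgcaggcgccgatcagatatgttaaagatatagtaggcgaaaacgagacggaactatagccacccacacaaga

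In these windows the strongest Tm1 peak held an E-box (CANNTG), and the Tm1 peak of rank 1063 held an E-box and a match to GAGAGAG, the site of GAGA factor, on the opposite strand. The peak of rank 4096 held Motif 1 (GGTCACACT) on the opposite strand and an E-box. The peak of rank 5518 held the BEAF-32 core CGATA at 2 positions, both on the opposite strand. The windows of sls and up held none of the motifs searched.

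Among the thick filament genes, Mhc (FBgn0264695) encodes the muscle myosin heavy chain, the motor of the sarcomere. It lies at chromosome 2L, positions 16766566 to 16788766, and has 5 annotated TSSs, of which one serves 14 of its 21 transcripts. No reproducible peak lay in it or within 2 kb, and the nearest beyond that was 27740 bp away and 154 bp from a TSS of mdy. The pooled list held 3 peaks there, with signals of 37.4, 37.3 and 59.6. The strongest of these had rank 18228 and lay 120 bp upstream of the TSS shared by Mhc-RQ, Mhc-RS, Mhc-RU and Mhc-RV. The strongest peak of replicate 2 was also there, at rank 17420, but that of replicate 3, at rank 20109, was in the 3′ untranslated exon. The replicates therefore placed their strongest Mhc peak at opposite ends of the gene, and all these peaks belong to the weak part of their lists.

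Mlc1 (FBgn0002772) and Mlc2 (FBgn0002773) encode the essential and the regulatory light chain of muscle myosin. They lie on chromosome 3R at positions 27657078 to 27660177 and 30171438 to 30174551, each with 1 annotated TSS. Each had 1 reproducible peak, and in both genes it lay downstream of the 3′ end. The Mlc1 peak had rank 8072 (signal 160.8), with rank 8289 in replicate 2 and 9178 in replicate 3. Its summit lay 4858 bp from the Mlc1 TSS and 1476 bp from a TSS of tau, a microtubule-associated protein gene in which the summit falls. The Mlc2 peak had rank 3213 (signal 419.2), with rank 2888 in replicate 2 and 4063 in replicate 3, and its summit lay 375 bp from a TSS of Rsod. So the peaks by which the light chain genes were counted in the wider region lay nearer to the start sites of their neighbours. At the Mlc2 TSS itself the pooled list held a peak 14 bp from the start, of rank 9302 and signal 134.1, just outside the reproducible list. It was present at rank 10806 in replicate 2 and rank 9020 in replicate 3. At the Mlc1 TSS a peak within 500 bp was present in replicate 3 alone, 467 bp away at rank 15095.

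The thin filament is controlled by troponin and tropomyosin. The gene up (upheld, FBgn0004169) encodes troponin T, the subunit that anchors the troponin complex on tropomyosin, and lies on chromosome X at positions 13593474 to 13602578. Of its 6 annotated TSSs, 1 had a reproducible summit, that of the single transcript up-RS, 19 bp away. The peak had rank 8872 of 8963 and signal 141.8, with rank 8520 in replicate 2 and 11677 in replicate 3. It was thus among the weakest of the reproducible list, and replicate 3 alone did not hold it among its 8963 strongest. The TSS that serves 11 of the 18 transcripts had a pooled peak 78 bp away, of rank 23501. In replicate 3 that start had a peak 39 bp away at rank 23252, and in replicate 2 no summit within 500 bp, the nearest being 676 bp away.

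The gene wupA (FBgn0283471) encodes troponin I, the subunit that inhibits the interaction of actin and myosin, and lies on chromosome X at positions 18105568 to 18116922. It had no reproducible peak in the gene or within 2 kb. Its strongest pooled peak had rank 12411 (signal 93.4) and lay 630 bp upstream of the first TSS, with replicate ranks of 10271 (replicate 2) and 15863 (replicate 3). The TSS of wupA-RE and wupA-RF had a weaker peak in both replicates, at rank 23518 in replicate 2 and 19472 in replicate 3. The TSS that serves 9 of the 13 transcripts had a peak 72 bp away in replicate 2 alone, at rank 25838.

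Tm1 (FBgn0003721) and Tm2 (FBgn0004117) encode tropomyosins, coiled-coil proteins that lie along the actin filament. Tm1 makes both muscle and non-muscle forms, and 18 transcripts with coding lengths of 161 to 711 codons are annotated for it at chromosome 3R, positions 15278220 to 15308779. Of its 8 TSSs, 6 had a reproducible summit within 500 bp, against 32.6% of all TSSs of protein-coding genes. The TSSs of Tm1 lie in groups, so that a single peak can be within reach of more than 1 of them. The strongest peak had rank 758 (signal 1065.2) and lay 71 bp upstream of the start of Tm1-RC and Tm1-RI, which code for 441 residues. Its signal was 554.6 in replicate 2 (rank 776) and 505.9 in replicate 3 (rank 763). The next had rank 1063 (signal 883.0) and lay 230 bp upstream of the start of Tm1-RH, which codes for 678 residues. Its signal was 440.5 in replicate 2 (rank 1157) and 440.4 in replicate 3 (rank 987). The starts lie 9792 and 8199 bp downstream of the first TSS, and both peaks fall in introns of longer Tm1 transcripts.

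The other Tm1 starts had weaker peaks. At the start shared by 7 transcripts, which include the form of 284 residues, the nearest summit was 317 bp upstream, in a peak of rank 8160 (signal 158.6, rank 7464 in replicate 2 and 9381 in replicate 3). A second peak 206 bp further upstream, of rank 7895, had no overlapping peak in replicate 2. In replicate 3 a peak of rank 10016 (signal 66.3) had its summit inside it, and the stronger peak of rank 9381 also overlapped its edge. At the most upstream start, that of Tm1-RT, the peak of rank 5518 lay 94 bp upstream of Tm1 but 17 bp from a TSS of MRG15, a chromodomain protein gene. The peak of rank 4096 lay 446 bp downstream of the Tm1-RT start and 2 bp from a TSS of l(3)neo43. These peaks are therefore counted for Tm1 while they lie on the start sites of other genes. The pair of starts used by Tm1-RA, Tm1-RQ and Tm1-RR, whose products have 250 or 252 residues, had no reproducible summit within 500 bp. A pooled peak 84 bp from the pair had rank 10239, with replicate ranks of 17145 (replicate 2) and 8900 (replicate 3). The only reproducible peak of Tm1 outside a promoter had rank 5822 (signal 235.7) and lay 1542 bp downstream of that pair, in an intron of all 18 transcripts.

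Tm2 is the next muscle gene downstream of Tm1 on the same strand, at chromosome 3R, positions 15310193 to 15315197, and all its annotated products have 284 residues. None of its 5 TSSs had a reproducible summit within 500 bp, and no reproducible peak lay in the gene or within 2 kb. The pooled list held 8 peaks there, between rank 14009 and rank 25559. At its first TSS the nearest pooled peak was 212 bp away at rank 25559. The neighbouring tropomyosin genes thus differed in the reproducible list, with 7 peaks at Tm1 (30.6 kb) and 0 at the shorter Tm2 (5.0 kb). In the pooled list the density over gene and flanks was higher at Tm2, with 8.88 summits per 10 kb against 5.79 at Tm1. However, the Tm2 peaks of rank 14009, 18448 and 21407 lay downstream of the gene and nearer to a TSS of CG14866. Those of rank 23325 and 25559 lay between Tm1 and Tm2 and were counted for both genes.

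**Figure D2:**
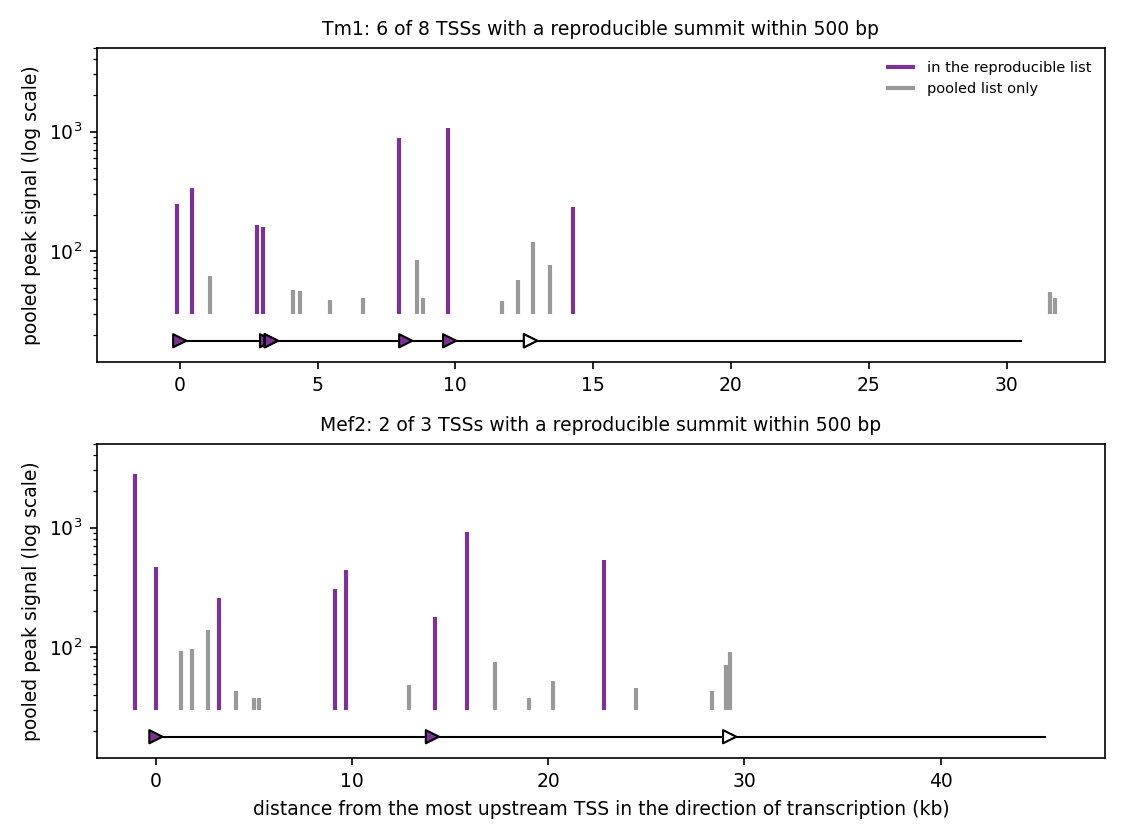
Pooled peaks at Tm1 and Mef2 by distance from the most upstream TSS in the direction of transcription (horizontal axis, kb), with the top of each line at the peak's pooled signal (vertical axis, log scale), purple where the peak is in the reproducible list and grey where it is not. Arrowheads mark annotated TSSs, filled where a reproducible summit lies within 500 bp, which holds for 6 of 8 TSSs of Tm1 and 2 of 3 of Mef2, and the line through them marks the gene.

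The genes of titin-like proteins differed in these lists, with a strong promoter peak at sls and no reproducible peak at bt. The gene sls (FBgn0086906) encodes Sallimus and its short form Kettin, which links actin and the Z-disc to the thick filament, and at 75.9 kb (chromosome 3L, positions 2039681 to 2115611) it was the longest of the 10 genes. Its 13 annotated transcripts, coding for 4796 to 18468 residues, share 1 TSS. A single reproducible peak lay 275 bp upstream of that start, so that it would not count within 250 bp, at positions 2115763 to 2116032, with rank 622 (signal 1195.6). Its signal was 640.1 in replicate 2 (rank 612) and 546.3 in replicate 3 (rank 671), and no other annotated TSS of a protein-coding gene was within 500 bp. The body of sls was empty in the reproducible and the pooled list: the other 2 pooled peaks of sls were upstream of the gene, at rank 23953 and 26250. The genes with promoter peaks closest to it in rank were Mer, which encodes Merlin, at rank 620, and Mkk4, a kinase gene, and SLIRP2, both with a peak of rank 619.

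bt (FBgn0005666) encodes Projectin, a titin-like kinase of the thick filament, and lies on chromosome 4 at positions 724400 to 776474. It had no reproducible peak in the gene or within 2 kb. A reproducible peak of rank 4532 lay just beyond that limit, 2436 bp upstream of its first TSS. The pooled list held 8 peaks within the limit, one of them 1 bp from that TSS at rank 12630 (signal 91.4), with rank 19642 in replicate 2 and 11364 in replicate 3. A peak of nearly the same rank, 12670, lay in a coding exon 49784 bp from the nearest bt TSS.

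Mef2 (FBgn0011656), at chromosome 2R, positions 9913496 to 9958858, had the most reproducible peaks of the set and a different layout. Of its 8 peaks, 2 were at a TSS of the gene, 4 in introns, 1 in a 5′ untranslated exon and 1 upstream. The upstream peak was the strongest of all 19, with rank 183 (signal 2808.0). Its signal was 1554.4 in replicate 2 (rank 177) and 1243.6 in replicate 3 (rank 194). Its summit lay 1059 bp upstream of the first Mef2 TSS and 161 bp from a TSS of Pal1, an enzyme gene of peptide amidation, with a TSS of Pdrg1 also within 500 bp. It was therefore outside the distance that counted as bound for Mef2. The first Mef2 TSS had a peak of its own, 9 bp away, of rank 2746 (signal 472.6), with replicate ranks of 3442 (replicate 2) and 2399 (replicate 3). The middle TSS, that of Mef2-RG, had a peak 127 bp away of rank 7431 (signal 178.3), with replicate ranks of 7081 (replicate 2) and 8518 (replicate 3).

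The third Mef2 TSS, which serves 8 of the 11 transcripts, had no reproducible summit within 500 bp. A pooled peak lay 32 bp from it at rank 12593 (signal 91.7), with replicate ranks of 16536 (replicate 2) and 10059 (replicate 3). The 4 intronic peaks had rank 2291, 3021, 4540 and 5364, and all were present in both replicates. They lay 3242 to 6395 bp from the nearest Mef2 TSS, the farthest being the peak of rank 2291. The peaks of rank 3021 and 4540 were 516 bp apart, and both lay in the first intron of the Mef2-RF and Mef2-RH transcripts. The peak in the untranslated exon was the strongest inside the gene, with rank 995 (signal 915.7, rank 926 in replicate 2 and 1187 in replicate 3), 1780 bp downstream of the Mef2-RG start. Just outside the reproducible list was 1 further intronic peak of signal 138.4 and rank 9062, with rank 9384 in replicate 2 and 9311 in replicate 3.

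Across the set, the TSS with the most transcripts was bound in 2 of the 10 genes, Tm1 and sls, against 33.1% of all protein-coding genes. At up and Mef2 the bound starts were those of 1 or 2 transcripts. Of the 36 annotated TSSs of the 10 genes, 10 had a reproducible summit within 500 bp, against 32.6% of all TSSs of protein-coding genes. Of these 10 TSSs, 6 were of Tm1. Genes with many starts have more chances to be counted: of the 7 members with 3 or more annotated TSSs 3 were bound, against 65.7% of 1133 such protein-coding genes. In the pooled list, which reaches down to a signal of 34.5, 9 of the 10 genes had a summit within 500 bp of a TSS, all but Mlc1, against 47.0% of all protein-coding genes. All 10 then held a summit in the gene or within 2 kb, against 63.5%.

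Gene length bears on counts over the whole gene. Of the 6 members of 10 kb or longer, 3 held a reproducible summit in the gene or within 2 kb, against 75.0% of 1985 such genes. Of the 4 shorter members 3 held one, against 47.5% of shorter genes, and for Mlc1 and Mlc2 it was the peak near the neighbour described above. Mhc (22.2 kb), bt (52.1 kb) and wupA (11.4 kb) were long genes without any. At the other end, 7 or more summits, as at Tm1 and Mef2, were found in 8.21% of the genes of 10 kb or longer. Per 10 kb of gene and flanks, Mef2 held 1.62 reproducible summits and Tm1 2.03, values reached by 15.9% and 9.92% of such genes, and sls held 0.125, against a median of 0.608 for genes of that length.

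**Figure D3:**
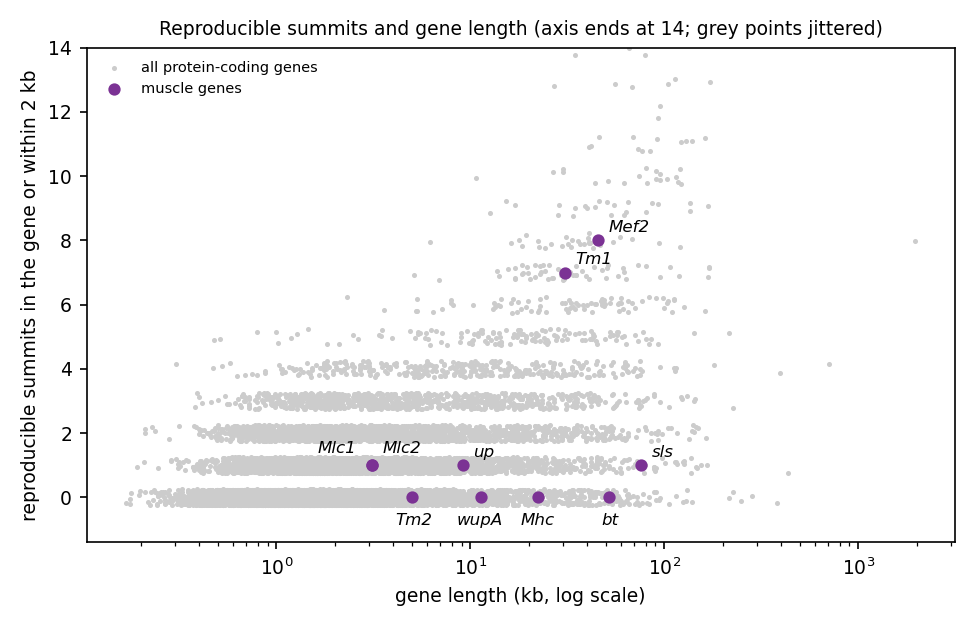
Reproducible summits in the gene or within 2 kb (vertical axis) against gene length (horizontal axis, kb, log scale) for the 10 muscle genes, in purple with their names, and all protein-coding genes, in grey and jittered. Tm1 and Mef2 hold 7 and 8 summits, while sls, the longest of the 10, holds 1 and bt, Mhc, wupA and Tm2 hold 0, and 13 genes with more than 14 summits lie beyond the axis.

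Of the 19 reproducible peaks, 12 (63.2%) had the summit within 500 bp of a TSS of some protein-coding gene, against 46.8% of all reproducible peaks. These shares are not like for like, since the 19 peaks were taken in or within 2 kb of a gene and all reproducible peaks were not. For 10 of the 12 peaks that gene was the member itself, although at 5 of the 19 peaks the nearest TSS was that of another gene. A further 5 peaks were intronic, of which 4 were in Mef2. The median rank of the 19 peaks was 4096 and that of the whole reproducible list 4482. Of the peaks of the members in the pooled list, 77 different ones, 2 lay between Tm1 and Tm2 and within reach of both genes.

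An overlapping peak in both replicates was found for 18 of the 19 reproducible peaks, against 97.6% of all reproducible peaks, the exception being the Tm1 peak of rank 7895. Both replicates held an overlapping peak among their 8963 strongest for 15 of the 19, against 82.5%. On the log2 scale the ratio of the replicate 3 signal to the replicate 2 signal ran from -0.51 to 0.36 over the 18 peaks, with a median of -0.19, and its median over all 8751 such reproducible peaks was -0.11. Of the 18 peaks, 13 ranked higher in replicate 2 and 5 in replicate 3. Of the 60 weaker pooled entries at the members, 36 had a partner in both replicates, 21 in 1 and 3 in neither, with the 2 peaks between Tm1 and Tm2 entered for both genes.

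**Figure D4:**
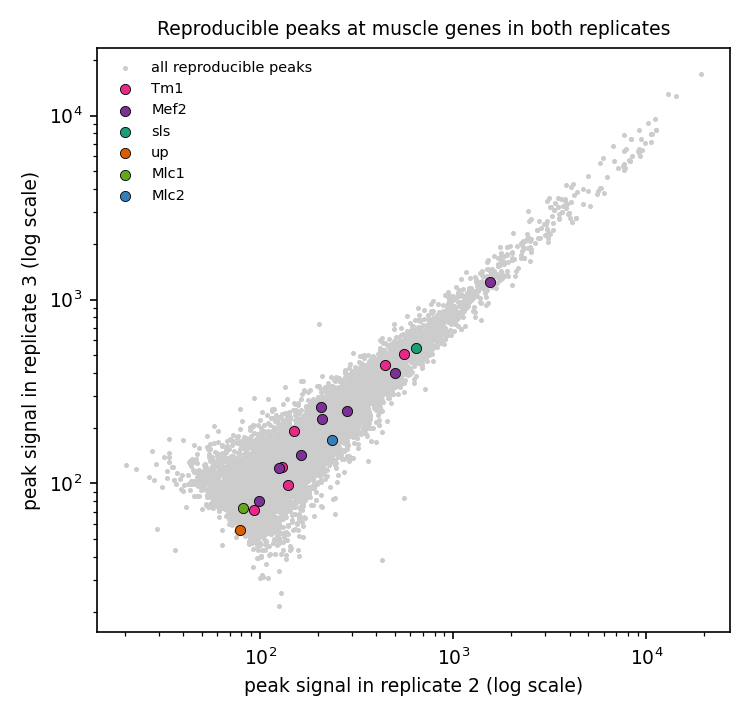
Signal in replicate 2 (horizontal axis) and replicate 3 (vertical axis), both on log scales, of the 18 reproducible peaks at muscle genes that overlap a peak in both replicates (coloured by gene) and of all 8751 such reproducible peaks (grey). The coloured points lie within the grey cloud, with the Mef2 peak of rank 183 highest and the up peak of rank 8872 lowest.

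The motifs were counted within 50 bp of the 19 summits, on both strands, beside their share of all 8963 reproducible summits. The DNA replication-related element TATCGATA was at 0 of the 19 summits, against 4.61% of all. Motif 1 was at 2, the Tm1 peak of rank 4096 and the Mef2 peak of rank 2746, against 2.54%. The BEAF-32 core CGATA was at 1, against 23.3%, and the E-box at 10, against 39.9%. Within 100 bp of the summit CGATA was at 3, against 35.4%, and the E-box at 12, against 63.9%, near its background. The TATA box, TATAAA, was at 1, the Tm1 peak of rank 8160, against 15.5%, and GAGAGAG at 1, against 1.09%. The consensus of MEF2 was at 0, against 4.32%. In the windows of 100 bp to either side it was at 1, against 8.48%, and TATCGATA at 0, against 6.68%. Motif 1 was then at 3, against 4.4%, the TATA box at 3, against 28.2%, and GAGAGAG at 3, against 3.51%. CGATA is part of TATCGATA, and with 19 windows each of these counts is small. The median GC content of the windows was 38.6% at the members and 36.6% over all reproducible peaks.

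Other muscle genes and the non-muscle counterparts were counted in the same way. Of 38 other muscle genes, 9 (23.7%) were bound, against the 35.2% of all protein-coding genes given above. With the pooled list 21 of them (55.3%) were, against 47.0% of all protein-coding genes, so their share lay below the background in the reproducible list and above it in the pooled one. The ranks that follow are those of the reproducible list. The strongest were at tmod, whose product caps actin filaments, at rank 429, at mys, which encodes the beta integrin of muscle attachment, at rank 492, and at tin, a homeobox gene of heart and muscle formation, at rank 521. Next came mbc, needed for myoblast fusion, at rank 1543, how, an RNA-binding protein gene, at rank 1978, and Msp300, which encodes a giant nuclear envelope protein, at rank 2861. The fusion gene rols had rank 3940, the alpha-actinin gene Actn rank 4665 and the integrin gene if rank 6789. At 4 of the 9 genes the peak was also within 500 bp of the start of a neighbour, which was fs(1)h for mys, Nup98-96 for mbc, usp for Actn and mRpL22 for if. The muscle actin genes Act57B, Act79B, Act87E and Act88F were not bound. Act57B had weak promoter peaks in both replicates (rank 10627 in replicate 2 and 9876 in replicate 3). Act87E had them too (rank 11319 in replicate 2, at 458 bp, and 12489 in replicate 3, at 23 bp), and 1 reproducible summit within 2 kb of the gene but not within 500 bp of a TSS, while Act79B and Act88F had no peak within 2 kb even in the pooled list.

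The list of 5 cytoskeletal counterparts was not fixed in advance, since Act42A and Mlc-c were added after their values were seen. Of these 5 genes, 4 were bound, against 35.2% of all protein-coding genes. They were zip, the heavy chain of non-muscle myosin (rank 3199), sqh, its regulatory light chain (rank 3105), and the cytoplasmic actins Act5C (rank 7253, but 10965 in replicate 2) and Act42A (rank 7773, but 9124 in replicate 3). Each of these actin genes was thus bound with the 8963 strongest peaks of 1 replicate and not with those of the other. Mlc-c, the non-muscle essential light chain, had no reproducible summit within 500 bp, although replicate 3 had a peak there of rank 2335, and replicate 2 had none. The genes of the heavy and the regulatory chain of non-muscle myosin were bound, and Mhc and Mlc2 of muscle myosin were not. For the essential light chain, neither Mlc-c nor the muscle gene Mlc1 was bound. Mlc2 missed narrowly, with a pooled peak of rank 9302 at 14 bp from its TSS. With the pooled list both Mlc2 and Mhc were bound. The lists are small and were not tested against each other.

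**Figure D5:**
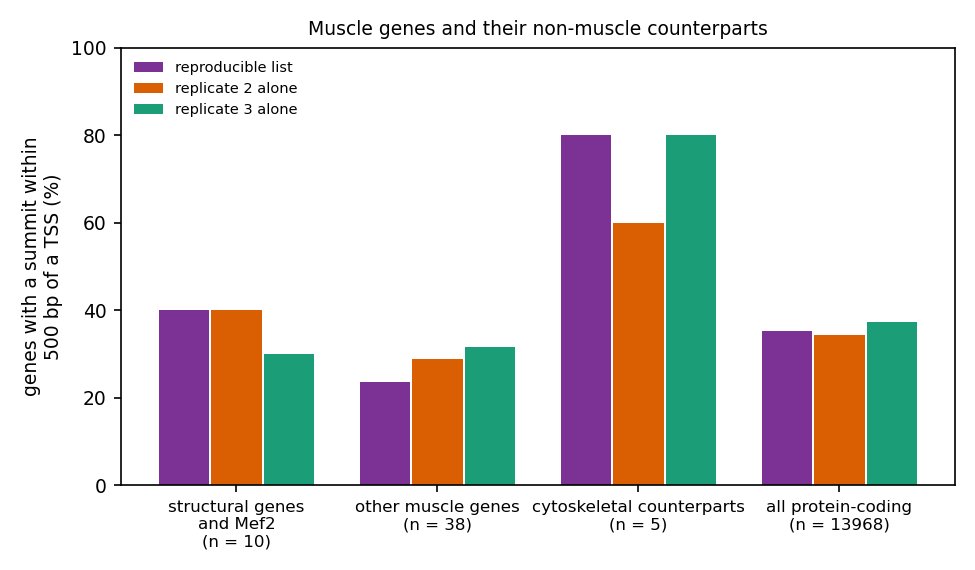
Share of genes with a summit within 500 bp of a TSS (vertical axis, percent) among the 9 structural genes and Mef2, 38 other muscle genes, 5 cytoskeletal counterparts and all 13968 protein-coding genes, with the reproducible list and with the 8963 strongest peaks of each replicate alone. With the reproducible list, 4 of the 10 genes are bound, 9 of the other muscle genes (23.7%), 4 of the counterparts and 35.2% of all genes. Among the counterparts, Act42A and Mlc-c were added after their values were seen.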

How the data were processed

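The text files deposited with the libraries record that alignments of the immunoprecipitation and of a control entered each peak list. The reproducible list came from the replicate lists together with the pooled one, all on dm6. Its 19 peaks at members had the same rank and signal in the pooled list. Its weakest signal and the strongest pooled signal below it were both 140.3 after rounding. Being bound thus rests here on a cutoff of the pooled signal, which the pooled list lowers. An aligner and a peak caller are not named in the sources used here. The authors deposited a signal value for each peak, whose scale is not stated, and here it gave only the order of peaks inside each list, apart from the log2 ratio between replicates. The pooled and replicate lists each hold exactly 30000 lines, so weak peaks may be missing.

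Genes came from Ensembl release 115 (BDGP 6.54) and sequence from RefSeq release 6. All 109 annotated coding sequences of the members start with ATG in that sequence. Distances run from the summit to the nearest TSS of a protein-coding transcript, and partners are peaks that overlap by any base, the strongest where several do. Of the fixed names, 1 was matched through an older symbol. Genes named were the members, neighbours with the nearest TSS, bound genes of the 2 lists by rank up to 12, up to 4 unbound ones in alphabetical order, and 3 genes next to the leading member in rank; Act42A and Mlc-c were added after their values were seen. Members and lists were chosen with earlier results of these data known. Python 3.11.15, NumPy 2.4.6, pandas 2.3.3 and Matplotlib 3.10.9 were used, and the counting was tested on simulated summits. Alternatives changed the distance, flank, list, replicates, assignment, overlap and window.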

Additional observations from a re-analysis of the deposited data

How the results depend on the processing

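With the pooled list, 9 members (in place of 4), 21 other muscle genes (55.3%, in place of 9 or 23.7%) and 4 cytoskeletal counterparts (as before) were bound at a TSS, against 47.0% of all protein-coding genes (in place of 35.2%), and 10 members held 79 peaks (in place of 6 and 19). Keeping only the 4481 strongest reproducible peaks left 2 counterparts, 3211 protein-coding genes and 10 peaks at members by its construction. Without flanks 3 members, up, Tm1 and Mef2, held a summit. No share of all protein-coding genes without flanks stands beside this count, so it cannot be called low or high. Windows of 100 bp to either side gave 25 motif matches at members in place of 15. The shares over all reproducible summits rose with the window as well, for the E-box from 39.9% to 63.9%. Of 50 alternatives of these counts, 9 moved past 1.5 times. Of 80 answers for single members, 8 changed: 5 became bound in the pooled list, sls was not bound within 250 bp, and up was not bound with those 4481 peaks or without replicate 2. Leaving out replicate 2 gave 3 bound members, against 37.4% of all protein-coding genes, and leaving out replicate 3 gave 4, against 34.3%. No paired analysis was possible because there is 1 group. Depth is unknown, and lists capped at 30000 lines limit what can be said of weak peaks.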
